A study of Mus musculus with 32 samples.

Results

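The genes described here are the mouse zinc finger protein genes that the submitters' tables list under a symbol made of Zfp and a number, such as Zfp28 or Zfp354c. Of 258 such autosomal genes listed, 244 averaged 20 or more informative reads a pool in embryonic brain, preoptic area or prefrontal cortex, out of 14661 autosomal genes that passed the same filter. An informative read is one that covers a base at which the parental strains differ, a single-nucleotide polymorphism (SNP). The minimum was met by 243 of the genes in the embryo, 183 in the preoptic area and 179 in the prefrontal cortex. All 3 tissues counted 171 of them, the embryo alone 53, and an adult region alone 1, Zfp352.

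The study sequenced polyadenylated RNA from the brains of F1 hybrids between CAST/EiJ, a strain of the castaneus subspecies, and C57BL/6J (B6). F1i animals had CAST mothers and B6 fathers and F1r animals the reverse, so that every hybrid carried 1 CAST and 1 B6 genome. The embryonic samples were 1 pool per cross of whole brain at day 15 (E15), with RNA of 4 to 5 individuals each and no sex given in the labels. Inbred CAST/EiJ and C57BL/6J embryos of the same day gave 1 further pool per strain, used for a description without test. The adult samples, at 5 weeks, were the preoptic area of the hypothalamus (POA) and the medial prefrontal cortex (PFC), each with 1 pool per cross and sex, which gives 4 pools per region and 8 in all, with RNA of 8 to 10 animals each. Since the embryonic tissue was whole brain and the adult tissue was dissected regions, age and tissue cannot be told apart. The p-values measure the spread between these pools, which hold many animals each.

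Most Zfp genes encode proteins with a row of C2H2 zinc fingers, small folds in which a pair of cysteines and a pair of histidines hold a zinc ion and whose neighbouring residues read DNA bases. Many of them also carry a KRAB domain, which recruits the corepressor TRIM28 and with it the histone methyltransferase SETDB1, and many KRAB zinc finger proteins silence transposable elements or hold imprinted methylation. These genes have multiplied by local duplication, so they sit in clusters, and some of them differ between mouse strains. The name was checked against the longest GENCODE coding sequence of each gene. A cysteine and histidine spacing typical of C2H2 fingers was found in 233 of the 244 (95.492%), against 4.355% of 21654 autosomal coding genes, and a stretch resembling the KRAB A box in 103 (42.213%, against 1.307%). The 11 without the finger pattern include genes with other current names: Zfp179 is now Rnf112 and Zfp294 is Ltn1, RING finger ubiquitin ligases, Zfp259 is Zpr1, Zfp289 is Arfgap2, Zfp469 is Tnrc18 and Zfp650 is Ubr3.

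Each autosomal pool held 3487111 to 11427776 informative reads, and the Zfp genes took 1.0778 to 1.2155% of them in the embryo, 0.6491 to 0.683% in the POA and 0.557 to 0.6085% in the PFC. On the X chromosome the embryonic F1i pool had 97.6% CAST reads, close to the 97.0% and 96.3% of the adult F1i male pools. The embryonic F1r pool had 55.2%, between the 1.04 and 1.32% of the adult F1r male pools and the 68.5 and 62.3% of the F1r female ones. Cross and sex make-up can therefore not be told apart in the embryo. One pool stood apart along chromosome 7. When the genome was divided into 628 autosomal blocks of 2000000 bases with at least 5 genes, the median CAST share of the POA F1r female pool lay 8 or more percentage points above the median of all pools in 12 blocks, 9 of them on chromosome 7, and by up to 24.5 points. The POA F1r male pool did so in 4 blocks, the PFC F1r female pool in 5, and each of the other 7 pools in at most 1. As far below the median lay the E15 F1i, POA F1i male and PFC F1i male pools in 4 blocks each, by up to 12.1, 10.5 and 10.5 points, the POA F1r male pool in 2, the PFC F1r male pool in 1 and the other 5 in none. Named results whose test changed without both POA F1r pools are given with and without them.

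The following sequences show what the counts measure. They are 31-base windows of coding exons on NCBIM37 (mm9), read 5′ to 3′ on the strand of the gene, with the SNP in capitals. The B6 line is the reference genome and the CAST line carries the base of the authors' SNP calls. The genes are among those called in adults whose CAST share lay on one side of 50% in all 8 adult pools, and 1 more, Zfp697, whose share was low in the embryo.
Zfp239 B6, chr6:117821710-117821740, plus strand: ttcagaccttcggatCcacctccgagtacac
Zfp239 CAST: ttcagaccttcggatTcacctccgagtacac
Zfp382 B6, chr7:30918610-30918640, plus strand: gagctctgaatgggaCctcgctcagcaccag
Zfp382 CAST: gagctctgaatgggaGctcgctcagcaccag
Zfp28 B6, chr7:6336262-6336292, plus strand: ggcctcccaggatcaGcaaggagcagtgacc
Zfp28 CAST: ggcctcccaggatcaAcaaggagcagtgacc
Zfp560 B6, chr9:20153507-20153537, minus strand: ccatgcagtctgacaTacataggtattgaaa
Zfp560 CAST: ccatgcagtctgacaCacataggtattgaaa
Zfp667 B6, chr7:6257709-6257739, plus strand: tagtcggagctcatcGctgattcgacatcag
Zfp667 CAST: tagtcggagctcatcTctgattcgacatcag
Zfp112 B6, chr7:24911813-24911843, plus strand: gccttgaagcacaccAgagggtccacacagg
Zfp112 CAST: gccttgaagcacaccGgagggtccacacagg
Zfp251 B6, chr15:76684611-76684641, minus strand: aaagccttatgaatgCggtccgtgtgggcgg
Zfp251 CAST: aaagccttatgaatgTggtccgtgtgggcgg
Zfp157 B6, chr5:138897105-138897135, plus strand: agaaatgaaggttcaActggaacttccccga
Zfp157 CAST: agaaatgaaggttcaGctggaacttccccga
Zfp697 B6, chr3:98232466-98232496, plus strand: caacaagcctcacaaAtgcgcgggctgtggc
Zfp697 CAST: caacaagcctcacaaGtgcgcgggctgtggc

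Summed over the 8 adult pools, the Zfp239 base was read 329 times as CAST and 207 times as B6, and the Zfp382 base 88 and 48 times. B6 reads were the more frequent at Zfp667 (27 CAST, 109 B6), Zfp28 (16 and 44), Zfp112 (20 and 46), Zfp157 (38 and 66) and Zfp251 (126 and 156). At the Zfp697 base the adults had 21 CAST and 11 B6 reads and the embryos 12 and 23, while 10 of the 14 Zfp697 SNPs with at least 20 adult reads lay below 50%. The Zfp560 base went the other way from its gene, with 14 CAST and 8 B6 reads in adults.

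Zfp genes were, as a group, higher in embryonic brain than in the adult regions. Over the SNPs listed in all 3 tables, 188 of the genes had reads enough to be tested, and 113 of these were higher in the embryo and 20 lower (60.1% and 10.6%, against 33.4% and 31.7% of the 11068 autosomal genes tested; edgeR quasi-likelihood test, Benjamini-Hochberg adjusted p under 0.05). The median log2 difference, embryo minus adult, was 0.68 for Zfp genes and 0.03 for all genes. Both embryonic pools lay above all 8 adult pools for 91 of the 188 (23.4% of all genes) and below all 8 for 13 (23.1% of all genes). Of the genes passing the read minimum in all 3 tissues, 169 were tested, with 99 higher and 19 lower in the embryo. Their median was 0.62, against −0.01 for all such genes. The test took genes whose 3 tissue means averaged 20 or more reads, so high embryonic reads alone could bring a gene in. Of the genes that passed in the embryo alone, all 5 Zfp genes tested were higher. So were 139 of all 166 such genes, and 0 were lower. In bulk tissue, fewer cells of a type and less RNA per cell cannot be told apart.

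**Figure D1:**
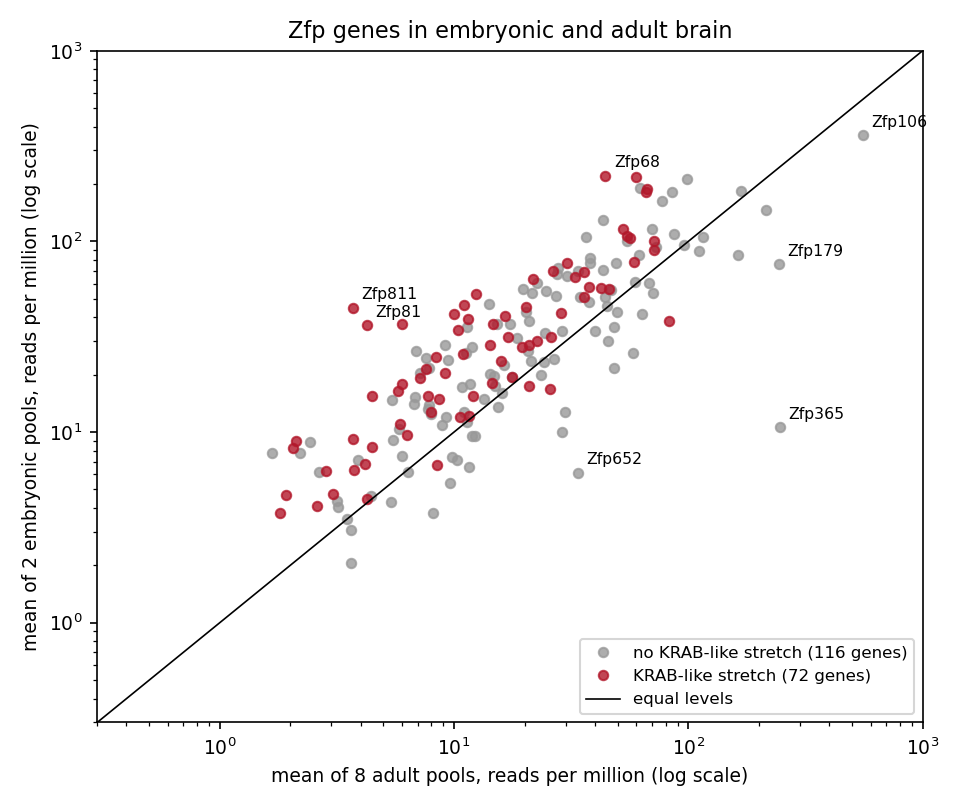
Each point is a Zfp gene, with its mean RPM (informative reads scaled to a common library size) in the 8 adult pools (x axis, log scale) and in the 2 embryonic pools (y axis, log scale); red points have a KRAB-like stretch. Most points lie above the line of equality, 113 of 188 tested genes being called higher in the embryo and 20 lower.

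The difference was largest, in median, for the genes with both fingers and a KRAB-like stretch. Of 71 of these tested, 57 were higher in the embryo and 2 lower, with a median log2 difference of 0.98. Finger genes without a KRAB-like stretch had 53 higher and 16 lower of 107, with a median of 0.43, and the genes without the finger pattern 3 and 2 of 10, with 0.25. By number of fingers the median was 0.27 for 1 to 5 fingers (16 higher, 7 lower of 38), 0.62 for 6 to 10 (30 and 8 of 54) and 0.91 for 11 or more (64 and 3 of 86). All 3 tissues counted 66 of the 102 genes with fingers and a KRAB-like stretch, and the embryo alone 31. For finger genes without the stretch the numbers were 96 of 131 and 21. The differences between these classes were not tested, and the same genes enter several of them.

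Among genes whose embryonic and adult pools did not overlap, the 6 largest increases in the embryo were those of Zfp811, Zfp81, Zfp748, Zfp68, Zfp41 and Zfp113, all but Zfp41 with a KRAB-like stretch. Zfp811, on chromosome 17, stood at 42.1 and 47.6 RPM, informative reads scaled to a common library size, in the embryonic F1i and F1r pools. Its adult pools ranged from 1.44 to 8.09 with a median of 2.71, which gave a log2 difference of 3.81 ± 0.27 (SE; adjusted p = 2.04e-08). Every adult pool was therefore far below both embryonic pools. Its cluster neighbour Zfp81 had 19.7 and 53.2 in the embryo and 2.64 to 6.58 (median 3.73) in adults, a log2 difference of 3.06 ± 0.25 (adjusted p = 1.17e-07). Zfp68, on chromosome 5, had 211 and 232 in the embryo against 33.1 to 65.3 (median 42.6) in adults, 2.35 ± 0.13 on the log2 scale (adjusted p = 2.36e-09). For these genes the embryonic pools did not overlap the adult ones. Zfp811 and Zfp41 were read little in adults, Zfp41 at 0.578 to 2.94 RPM, and such genes can enter the test through the embryo. Zfp748 on chromosome 13 differed by 2.67 ± 0.26, Zfp41 on chromosome 15 by 2.25 ± 0.34 and Zfp113, beside Zfp68, by 2.09 ± 0.16 (adjusted p = 6.08e-07, 3.95e-05 and 4.1e-08).

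Of the 20 genes that were lower in the embryo, 2 had fingers and a KRAB-like stretch, 16 had fingers alone and 2, Zfp365 and Zfp179, had no finger pattern. Zfp365, which encodes a coiled-coil protein known from neurons and centrosomes, had 9.9 and 11.4 RPM in the embryonic pools, 73.2 to 85.3 in the POA and 300 to 476 in the PFC. The 3 tissues did not overlap, and the log2 differences were −4.09 ± 0.22 for embryo minus adult and −2.37 ± 0.15 for POA minus PFC (adjusted p = 1.84e-09 and 1.48e-08). Zfp652, a finger protein known as a transcriptional repressor, had 7.9 and 4.36 in the embryo and 16.7 to 62.1 (median 27.8) in adults, −2.34 ± 0.26 on the log2 scale (adjusted p = 1.88e-06). It too was lower in the POA than in the PFC, by −1.30 on the log2 scale. Zfp179, the brain RING finger gene Rnf112, had 85.0 and 66.5 in the embryo and 175 to 376 (median 207) in adults, −1.63 ± 0.19 (adjusted p = 2.87e-06). The other 3 of the 6 largest decreases without overlap of the pools were Zfp533 (−1.53), Zfp574 (−1.21) and Zfp771 (−1.19).

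**Figure D2:**
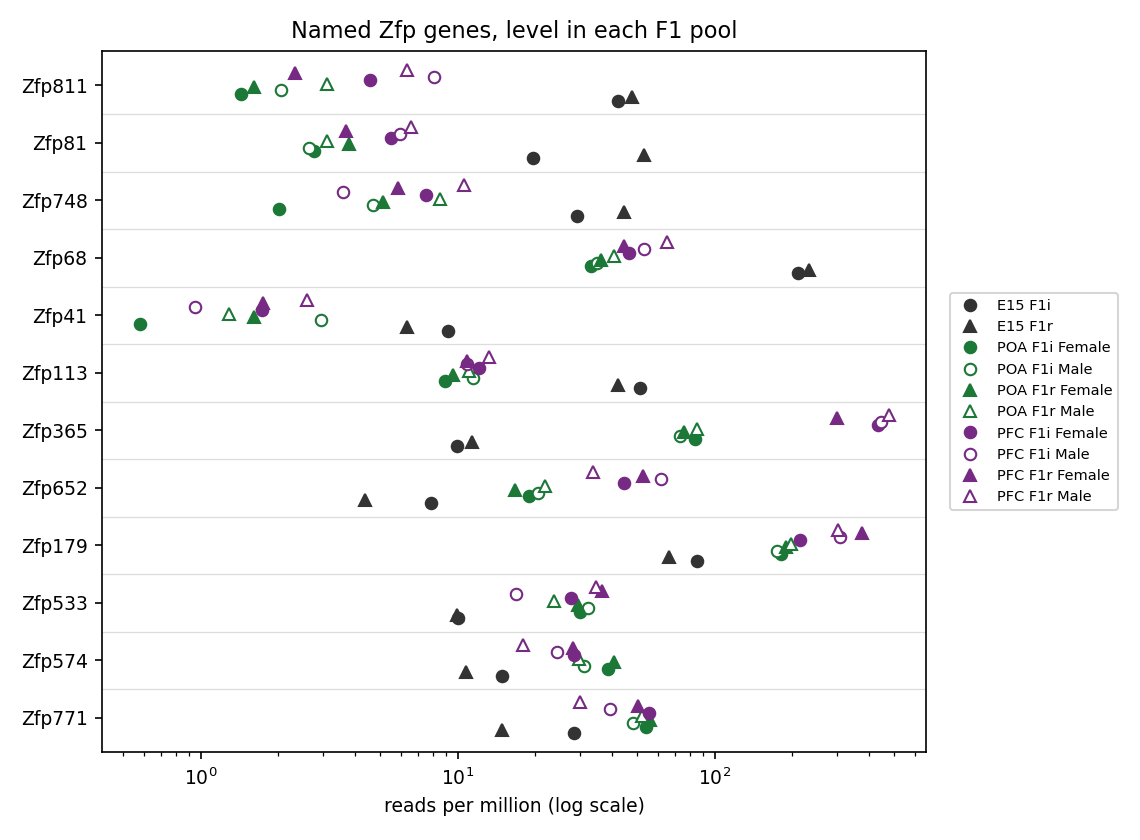
RPM, informative reads scaled to a common library size (x axis, log scale), in each of the 10 pools for the 6 Zfp genes with the largest increase and the 6 with the largest decrease in the embryo among those whose embryonic and adult pools did not overlap (rows); points are single pools, coloured by tissue, with circles for F1i and triangles for F1r. Zfp365 separates all 3 tissues, with embryonic values of 9.9 and 11.4, POA values of 73.2 to 85.3 and PFC values of 300 to 476.

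Genes with known roles were followed as lists. Of 13 neural development genes, 10 were tested, of which 7 were higher in the embryo and Zfp365 was lower. Zfp521 and Zfp423, related multi-finger factors of neural precursors, rose by 2.04 and 0.77 on the log2 scale. Zfp503, a regulator of striatal and motor neuron identity, rose by 2.27, from few adult reads (0.235 to 5.2 RPM). Zfp462, Zfp292, Zfp804a and Zfp191 rose by 1.22, 1.92, 0.77 and 0.87, and the call of Zfp804a was lost without the E15 F1r pool (0.15, adjusted p = 0.663) and without both POA F1r pools (0.53, adjusted p = 0.108). Zfp536 (0.33) and Zfp335 (0.00) did not pass the test, but with each region's own SNPs Zfp536 was called (1.07, adjusted p = 9.65e-05). Zfp335, needed for neural progenitors, changed sign with the setting and its embryonic pools were 59.3 and 32.4 around adult values of 40.2 to 50.3.

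For 4 of these genes the adult regions differed as well. The log2 differences of POA minus PFC were 1.01 for Zfp423, 2.13 for Zfp521, 2.67 for Zfp503 and 1.41 for Zfp462 (adjusted p = 4.29e-05, 2.17e-05, 0.000129 and 1.34e-05). Zfp503 lay near the floor, at 2.32 to 5.2 RPM in the POA and 0.235 to 1.67 in the PFC. It had 1 SNP with at least 20 adult reads, so its differences are known only roughly. Zfp423 in the embryo, at 151 and 80.5 RPM, spanned the POA values of 84.3 to 103, above the PFC values of 37.5 to 56.4. Its embryonic level differed from the PFC by 1.28 on the log2 scale and from the POA by 0.27, which did not pass the test (adjusted p = 1.03e-05 and 0.168). Zfp521 exceeded the POA by 0.97 and the PFC by 3.10, and Zfp462 by 0.52 and 1.93. Over all Zfp genes, 37 were higher in the POA and 34 in the PFC of 188 tested (25.4% and 25.5% of all genes), or 19.7% and 18.1%. Without both POA F1r pools 43 were called in place of 71, with 41 called in both, the 4 genes above among them.

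Among the KRAB silencers listed, Zfp445, which helps keep imprints methylated, rose in the embryo by 1.14 ± 0.18 and Zfp809, which recognises retroviral primer binding sites, by 0.91 ± 0.24 on the log2 scale (adjusted p = 5.61e-05 and 0.00348). The Zfp809 call was lost without the E15 F1r pool (0.49, adjusted p = 0.164). Zfp568, a repressor of a placental Igf2 transcript, was counted in the embryo alone, at a mean of 114 reads per pool. Of the RNA binding or ribosome list, Zfp106 and Zfp346, an RNA-binding and a double-stranded RNA-binding protein, fell by 0.61 and 0.46, and neither call held without the E15 F1i pool (−0.40 and −0.17, adjusted p = 0.12 and 0.481), nor did that of Zfp346 without both POA F1r pools (−0.50, adjusted p = 0.0631). Zfp598 (0.28), which marks collided ribosomes, and Zfp622 (0.20), a ribosome assembly factor, did not pass the test, but with each region's own SNPs Zfp622 was called (1.27, adjusted p = 3e-05). The partners through which KRAB proteins silence, which are no Zfp genes, were tested for 17 of 19 genes, with 15 higher in the embryo and 2, Chd3 and Mbd3, lower. Trim28 and Setdb1 rose by 1.33 and 1.10.

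Cell type markers moved with age, and their part in the Zfp differences was not tested. All 3 tested progenitor markers (Nes, Sox2, Vim) were higher in the embryo, with a summed level of 514 to 696 RPM against 104 to 140 in the POA and 75.7 to 107 in the PFC. Both tested neuronal markers were lower (374 to 618, against 1339 to 1825.2 and 3126.7 to 4440.7), as were 3 of 3 astrocyte, 3 of 3 microglia and 3 of 3 GABAergic markers. Against the PFC alone, Gad1 and Slc32a1 did not pass the test (log2 −0.25 and −0.09, adjusted p = 0.258 and 0.819), while Gad2 did (−0.42). Of the 2 tested cortical excitatory markers, Slc17a7 was lower (−1.53) and Tbr1 was not called (0.11, adjusted p = 0.672). Mbp, the one oligodendrocyte marker tested, stood at 17.5 to 28.0 in the embryo, 3659.2 to 4160.4 in the POA and 813 to 2935.6 in the PFC. The markers of dissection were as labelled: cortical excitatory markers summed to 660 to 836 in the PFC and 6.96 to 11.4 in the POA, and GABAergic and preoptic markers to 540 to 579 and 2303.4 to 2608.0.

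The embryonic excess had a larger median inside gene clusters than outside, a difference that was not tested. A cluster was a run of at least 3 Zfp genes with gaps of at most 1 Mb, and 129 genes lay in one; 72 of the 101 tested were higher in the embryo and 7 lower, with a median of 0.87, against 41 and 13 of 87 with 0.39 outside clusters. Chromosome 7 holds 64 of the 244 genes. Of its 53 tested, 36 were higher and 3 lower with a median of 0.93, while the median of all genes on chromosome 7 was −0.07. In the cluster at 30553571 to 30954746 on chromosome 7, 10 of 11 tested genes were higher in the embryo, led by Zfp82 (1.78) and Zfp146 (1.6), the exception being Zfp382 (0.14). At 13000502 to 13569689 all 6 tested genes were higher (Zfp606 2.04, Zfp128 1.53). Of the 7 Zfp genes there, 5 passed the read minimum in all 3 tissues. The cluster at 24866943 to 26012526 differed from these in its counts, with 3 higher (Zfp428 among them, 1.06) and 1 lower (Zfp574) of 11.

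On other chromosomes, neighbouring genes of other families sometimes shared the excess and sometimes did not. On chromosome 15, from 75447109 to 76748440, all 6 Zfp genes were higher in the embryo with a median of 0.80. Of these, 4 passed the read minimum in all 3 tissues and 2 in the embryo alone. The 28 tested other genes of the same span had 6 higher and 10 lower and a median of −0.25. All 3 tissues counted 27 of the 36 other genes there. On chromosome 13, from 67170336 to 67927937, 9 of 11 Zfp genes were counted in the embryo alone, and Zfp748 and Zfp87 rose. There the other genes of the span were also higher, 5 of 6 tested, with a median of 1.30. All 5 genes from 50624588 to 50886301 on chromosome 11 (Zfp2, Zfp354a, Zfp354b, Zfp354c and Zfp454) and all 3 from 138580930 to 139060989 on chromosome 5 (Zfp68, Zfp113 and Zfp157) were higher. Of the 5 on chromosome 11, 3 passed the read minimum in all 3 tissues, and all 3 on chromosome 5 did.

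For most Zfp genes the CAST and B6 alleles were read about equally in the adult brain. The CAST share is the percentage of informative reads with the CAST base. Its mean over the 8 adult pools had a median of 49.0% over the 171 Zfp genes tested and ranged from 32.9 to 61.5%. The median over all genes tested was 48.9%. Genes with too few reads to be tested went further. Among those of the role lists, Zfp488 had adult shares of 47.6 to 85.7% (median 71.6%) and Zfp708 of 0.0 to 80.0% (median 29.1%). Of 171 Zfp genes tested, 14 were read more from CAST and 31 more from B6 (15.2% and 29.4% of all 10537 genes tested), or 8.19% and 18.1%. The share of calls was lower than among all genes in both directions. Fewer reads per gene also make calls fewer. The 244 Zfp genes, of 14661 genes, took 0.557 to 0.683% of the adult informative reads, and the part of depth was not tested. The split depended on the scaling: with TMM factors over the allele columns 23 were CAST-high and 21 B6-high. Without both POA F1r pools there were 29 calls, 8 CAST-high and 21 B6-high, and DESeq2 made 21, 6 and 15. The share was above 50% in all 8 pools for 4 genes and below 50% in all 8 for 15 (6.81% and 14.7% of all genes).

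Zfp239, on chromosome 6, was the steadiest of the CAST-high genes. Its CAST share was 61.3, 59.2, 58.3 and 59.0% in the POA pools and 56.7, 58.8, 59.7 and 59.1% in the PFC pools, a mean of 59.0 ± 1.28% (SD, n = 8), and 56.4 and 59.7% in the embryo. The log2 ratio of CAST to B6 was 0.53 ± 0.04 (SE, adjusted p = 1.17e-09). All 10 pools were thus CAST-high, though of its 29 SNPs with at least 20 adult reads 24 lay above 50% and 5 below, from 36.4 to 78.6%. Zfp382 had a mean of 60.2 ± 7.77% (range 51.0 to 74.8%, log2 ratio 0.63 ± 0.13, adjusted p = 0.000477), and it lies in the chromosome 7 block that stood apart. Without both POA F1r pools its mean was 57.2% and the call was lost (0.32, adjusted p = 0.156). Zfp91, which encodes a finger protein described as a ubiquitin ligase, had 54.7 ± 3.77% in the POA and 59.4 ± 2.89% in the PFC (SD, n = 4 each) and a log2 ratio of 0.43 (adjusted p = 0.000125), lost in the genome-aligned reads (0.22, adjusted p = 0.0726). The fourth gene above 50% in all pools, Zfp423, was not called (0.14, adjusted p = 0.083).

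The B6-high genes reached further from 50%. Zfp28, a KRAB gene on chromosome 7, had CAST shares of 37.1 to 44.7% in the POA and 16.7 to 33.3% in the PFC, a mean of 32.9 ± 9.47% (SD, n = 8) and a log2 ratio of −1.01 ± 0.17 (adjusted p = 3.19e-05). All 5 of its SNPs with at least 20 adult reads were below 50%. Zfp28 was read little, at 3.53 to 7.38 RPM in adults. Genome-aligned reads list it in the 4 POA pools, with 78 reads in all, and in no PFC pool. Zfp667, of the same chromosome 7 cluster as Zfp28, had 31.4 to 44.5%, a mean of 36.6 ± 4.01% and a log2 ratio of −0.79 ± 0.07 (adjusted p = 6.86e-09), with 33 of 34 SNPs below 50% and none above. Zfp251 on chromosome 15 had 39.2 ± 3.31% with 17 of 17 SNPs below 50% (−0.65 ± 0.06, adjusted p = 2.12e-08). These genes were B6-high in every adult pool and at nearly every SNP.

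Zfp112, in the chromosome 7 cluster at 24866943, had 38.2 ± 5.18%, with 13 of 14 SNPs below 50% (−0.72 ± 0.13, adjusted p = 5.87e-05). Zfp157 on chromosome 5 had 39.5 ± 4.92% with 21 of 25 below 50% (−0.62 ± 0.08, adjusted p = 4.84e-07). Zfp560 on chromosome 9 also rested on few reads, a mean of 31.2 per POA pool and 41.8 per PFC pool. It had 35.0 ± 11.1% (range 12.5 to 47.3%, log2 ratio −0.84 ± 0.20, adjusted p = 0.00139). Its call was lost without both POA F1r pools (−0.67, adjusted p = 0.0825) and in the PFC pools alone (−0.66, adjusted p = 0.07), and its SNPs were mixed, 4 below and 1 above 50%.

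**Figure D3:**
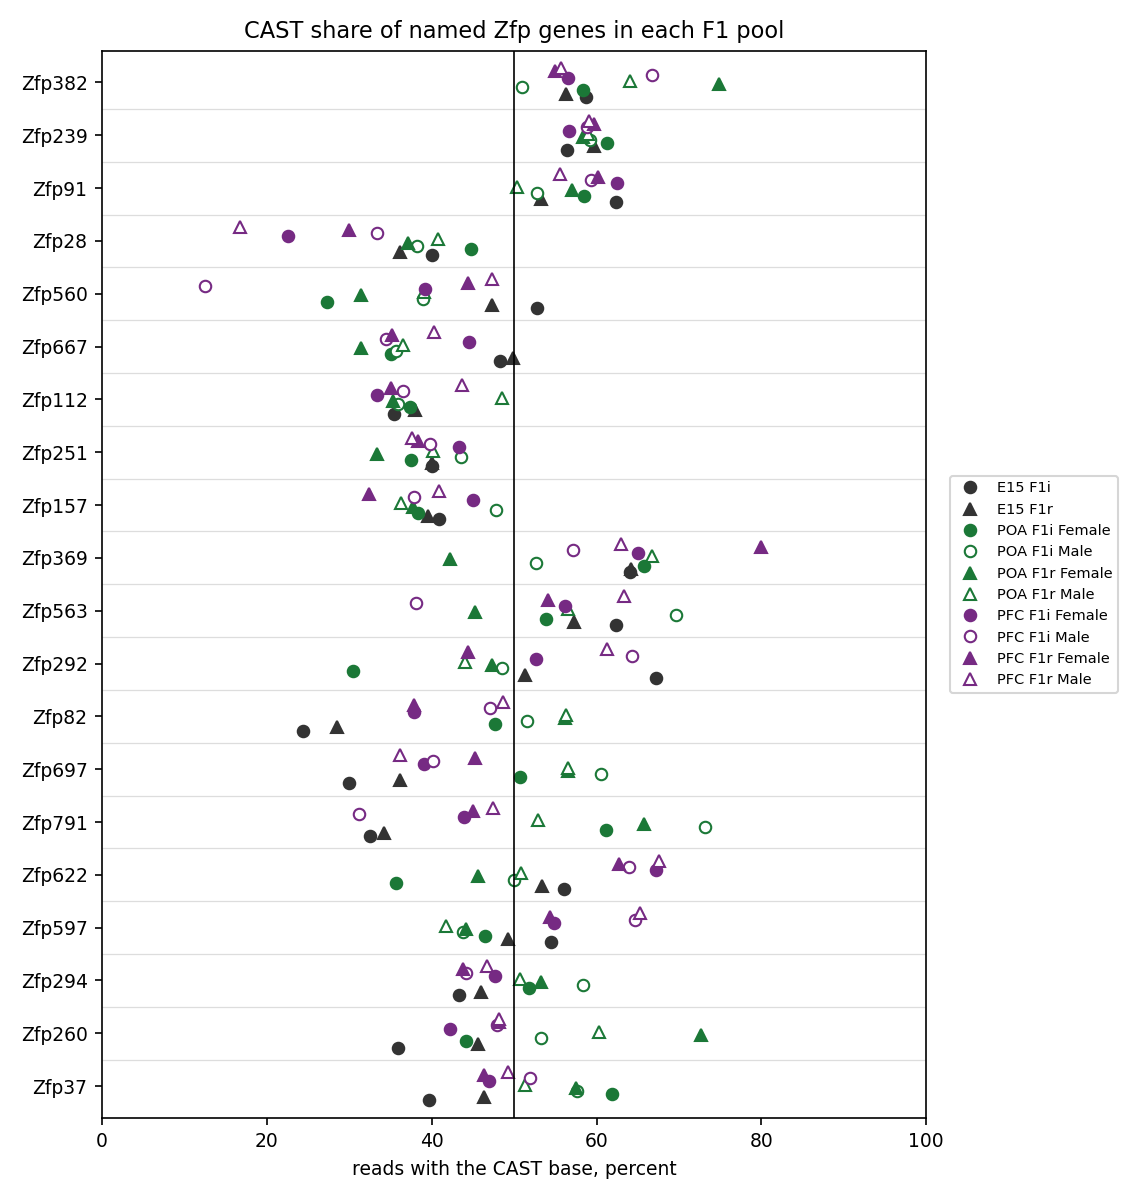
CAST share of informative reads (x axis, percent) in each of the 10 pools for the 20 Zfp genes named for a difference in CAST share (rows); points are single pools, with circles for F1i and triangles for F1r, and the line marks 50%. Zfp239 lies between 56.4 and 61.3% in all pools, while Zfp82 has 24.4 and 28.5% in the embryo and 37.9 to 56.3% in adults.

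By chromosome, the largest set, the 51 tested genes of chromosome 7, had a median adult CAST share of 49.0%, against 49.8% for all genes there. On chromosome 9 the median over 10 Zfp genes was 45.9%, with 5 B6-high and none CAST-high, against 49.0% for all genes. Of all 614 genes tested on chromosome 9, 176 were B6-high and 80 CAST-high. Of the 4 in the chromosome 9 cluster at 19445668 to 20297190, Zfp426, Zfp560 and Zfp75 were B6-high. In the chromosome 7 cluster at 24866943 to 26012526 the median was 46.1% over 11 Zfp genes, 4 of them B6-high (Zfp112, Zfp61, Zfp574 and Zfp428), against 50.7% over 10 other genes of the span. Of those 10 other genes, 3 were B6-high and 1 CAST-high. The calls of Zfp574 and Zfp428 were lost without both POA F1r pools (−0.31 and −0.18, adjusted p = 0.0981 and 0.14). The cluster at 30553571 to 30954746 had 4 CAST-high genes, Zfp382, Zfp146, Zfp27 and Zfp74, and no B6-high one, and it lies in the block where the POA F1r pools stood apart. Without those pools the log2 ratio of Zfp146 was 0.28 in place of 0.52 and still passed the test (adjusted p = 0.0333), while those of Zfp27 and Zfp74 were 0.23 and 0.02 in place of 0.41 and 0.32 and did not (adjusted p = 0.101 and 0.944). KRAB-like genes had 6 CAST-high and 14 B6-high calls of 66, and other finger genes 7 and 14 of 96. These differences between chromosomes, clusters and classes were not tested.

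In the embryo, 11 Zfp genes were CAST-high and 37 B6-high of 171 tested (8.99% and 23.4% of all 10358 genes), or 6.43% and 21.6%. With 1 pool per cross, this fit borrows its spread from the adult pools. TMM factors over the allele columns gave 17 and 25, DESeq2 called 4, all B6-high, and a fit that included X and Y genes called 12. Zfp82, a KRAB gene of the chromosome 7 cluster at 30553571, had the lowest share, 24.4% CAST in the F1i pool (95% Wilson interval 21.7 to 27.2%) and 28.5% in the F1r pool (25.3 to 31.9%), a log2 ratio of −1.48 ± 0.12 (adjusted p = 8.04e-10). The intervals cover counting error alone and count a read again at each SNP it covers. Of its 19 SNPs with at least 20 embryonic reads, 17 were below 50%.

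Zfp697 on chromosome 3 had 30 and 36.2% (−1.02 ± 0.11, adjusted p = 1.9e-07) with 17 of 19 SNPs below 50%. Zfp791 on chromosome 8 had 32.5 and 34.2% (−1.0 ± 0.24, adjusted p = 0.00199), but only 1 of its 3 deeper SNPs was below 50%. The 3 highest shares among the called genes were those of Zfp369 (64.0 and 64.2%), Zfp563 (62.4 and 57.3%) and Zfp292 (67.2 and 51.3%). Their log2 ratios were 0.84, 0.58 and 0.55 (adjusted p = 0.00194, 0.00193 and 0.0234). None of these 3 was called by DESeq2 or with X and Y genes in the fit. For Zfp563, 15 SNPs lay below 50% and 9 above, against the direction of the summed reads.

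The parental embryos gave a further description. At the listed SNPs the CAST/EiJ embryos had 3984092 reads and the C57BL/6J embryos 4888947. For Zfp82 the log2 ratio of the strains was −1.10, beside −1.47 between the alleles of the F1 embryos, and for Zfp697 −0.71 beside −1.0. Zfp369 had 0.89 and 0.83, Zfp239 0.72 and 0.47, Zfp28 −0.67 and −0.70, and Zfp667 0.03 and −0.06. Over 170 Zfp genes the strain ratio and the F1 ratio had a Pearson correlation of 0.519 (Spearman 0.415) and the same sign in 102 (60%). Over all 9959 genes the correlations were 0.525 and 0.543 and 68.6% had the same sign. The points share SNPs and base composition.

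The CAST share of 14 Zfp genes differed between the adult regions, higher in the POA for 10 and in the PFC for 4, Zfp622, Zfp263, Zfp641 and Zfp597 (7.36% and 4.28% of all genes), or 5.85% and 2.34% of 171. This count depended strongly on the setting, with 1 call left, Zfp622, without both POA F1r pools and none by DESeq2. Zfp622 had 35.7 to 50.8% in the POA and 62.7 to 67.6% in the PFC (POA minus PFC −1.23 ± 0.28 on the log2 ratio, adjusted p = 0.00456). The regions did not overlap, but in the genome-aligned reads the difference was −0.47 (adjusted p = 0.33). Zfp697 went the other way, 50.7 to 60.5% in the POA and 36.1 to 45.3% in the PFC (0.89 ± 0.22, adjusted p = 0.0104). Zfp294, the ribosome quality control ligase Ltn1, had 50.7 to 58.3% and 43.8 to 47.7% (0.44 ± 0.11, adjusted p = 0.0102). Zfp597 had 41.7 to 46.4% and 54.3 to 65.3% (−0.88 ± 0.21, adjusted p = 0.00816), and its sign turned in the genome-aligned reads (0.07). Without both POA F1r pools the differences of Zfp697, Zfp294 and Zfp597 were 0.88, 0.48 and −0.80 and no longer passed the test (adjusted p = 0.131, 0.0784 and 0.127).

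Zfp260, a finger gene of the chromosome 7 cluster at 30553571, had POA shares of 44.2 and 53.2% in F1i and 72.7 and 60.3% in the F1r female and male pools, and PFC shares of 42.2 to 48.2%. Its regional difference of 0.69 ± 0.18 (adjusted p = 0.0125) was 0.20 without both POA F1r pools (adjusted p = 0.631). The same pools were high for the genes around it. In the block from 30000001 to 32000000 on chromosome 7, the median over 37 genes was 67.2% in the POA F1r female pool and 57.5% in the POA F1r male pool, against 46.4 to 51.0% in the other 8 pools. Capns1, Polr2i and Alkbh6, which belong to other families, had 80.0, 75.8 and 77.1% in the female pool and 63.1, 65.3 and 68.6% in the male pool. The block holds 12 Zfp genes, and a second such block, from 50000001 to 52000000, holds Zfp473, Zfp715 and Zfp719. Of the 10 genes called higher in the POA, 2 lie in these blocks.

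**Figure D4:**
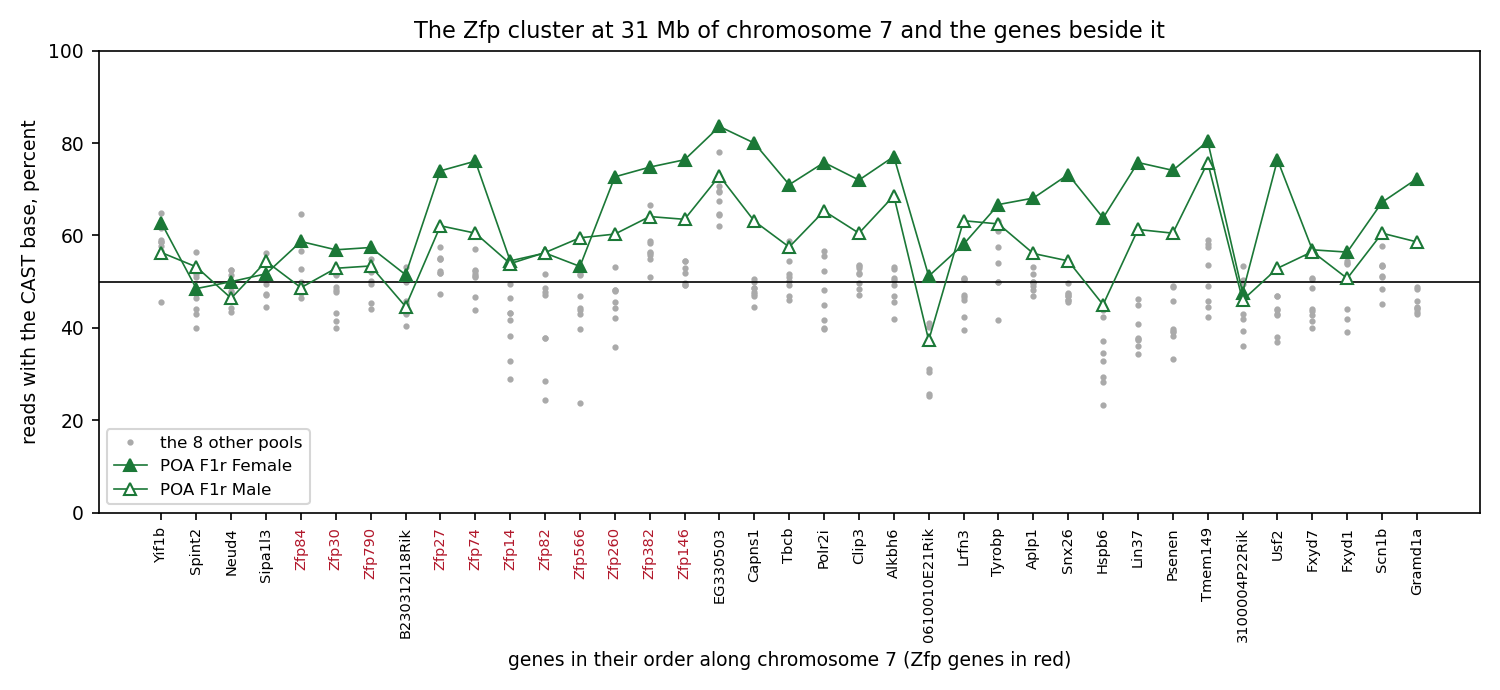
CAST share (y axis, percent) of the Zfp genes of the chromosome 7 cluster (red names) and of neighbouring genes, in gene order along the x axis, with the POA F1r female and male pools as green triangles, the other 8 pools as grey points and a line at 50%. At Capns1 the POA F1r female pool reaches 80.0% and the male pool 63.1%, above the other 8 pools.

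Between ages, 13 genes differed in CAST share, 3 higher in the embryo (Zfp560, Zfp667 and Zfp770) and 10 lower (4.84% and 7.68% of all genes), or 1.75% and 5.85%. Zfp82 was lower in the embryo by −1.32 ± 0.17 on the log2 ratio (adjusted p = 5.63e-06), with adult shares of 37.9 to 56.3% that did not overlap the embryonic 24.4 and 28.5%. It was the single gene called by DESeq2 and with X and Y genes in the fit. Zfp697 differed by −0.89, with 30 and 36.2% in the embryo beside 36.1 to 45.3% in the PFC and 50.7 to 60.5% in the POA. Without the 4 POA pools its difference was −0.45 (adjusted p = 0.103). Zfp667 was near 50% in the embryo, 48.3 and 49.8%, and B6-high in adults (0.74, adjusted p = 0.000763). Its SNPs were split in the embryo, 13 below and 14 above 50% from 21.2 to 82.2%, and the SNP printed above was B6-high at both ages, at 21.18% CAST in the embryo and 19.85% in adults. Zfp260 and Zfp37 differed by −0.67 and −0.59 (adjusted p = 0.00163 and 0.0115), and by −0.33 and −0.32 without the POA pools, which did not pass the test (adjusted p = 0.111 and 0.344). Leaving out both POA F1r pools, 9 genes were called, 7 of them among the 13. Zfp82, Zfp697, Zfp667, Zfp260 and Zfp37 were still called (−1.24, −0.89, 0.75, −0.43 and −0.64), and Zfp560 and Zfp770 were not (0.68 and 0.37, adjusted p = 0.168 and 0.259).

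No Zfp gene was called imprinted. A gene was called maternal or paternal when the parental difference passed the test and the maternal share was above 50% in both crosses, or below it in both. In adults none of 171 was called either way (0.218% maternal and 0.503% paternal of all genes) by edgeR or DESeq2, with 13 at an unadjusted p under 0.05. In the embryo none of 171 was called (0.705% and 0.434%) by either tool, with 8 at an unadjusted p under 0.05, and none changed in maternal share with age (0.656% and 0.232%), again with 8 and with none by DESeq2. The adult maternal share had a median of 49.8% and ranged from 42.4 to 54.6%. Fisher's exact test between the 2 embryonic pools, which knows counting error alone, called 9 of 243, Zfp398 and Zfp790 maternal (3.23% of all genes) and Zfp1, Zfp101, Zfp113, Zfp192, Zfp286, Zfp532 and Zfp771 paternal (1.67% of all genes).

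In adults, 2 genes passed the test but had their maternal share on different sides of 50% in the crosses. Zfp365 had maternal shares of 51.0, 51.8, 52.2 and 45.7% in the F1i pools and 25.6, 36.1, 38.2 and 43.9% in the F1r pools (maternal minus paternal −0.38 ± 0.06 on the log2 ratio, adjusted p = 0.00122). The paternal excess was thus seen in F1r, and in the PFC pools alone Zfp365 met the paternal rule. The Zfp365 difference was −0.28 ± 0.06 without both POA F1r pools (adjusted p = 0.00428). Of its neighbours on chromosome 10, Jmjd1c, Nrbf2, Reep3 and Gm237 had 34.2 to 51.9% CAST in the POA F1r pools where Zfp365 had 74.4 and 63.9%, while Plekhk1 had 70.9 and 78.0%, and 82.8 and 73.0% in the POA F1i pools. Zfp146 (−0.42 ± 0.09, adjusted p = 0.0277) lies in the chromosome 7 block, with 23.6 and 36.5% maternal in the POA F1r pools. Without them the Zfp146 difference was −0.18 ± 0.10 (adjusted p = 0.862), and with a block for cross and sex −0.40 (adjusted p = 0.0995), neither of which passed the test.

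The domain of Peg3 on chromosome 7 is a known imprinted region. Peg3 encodes a large zinc finger protein expressed from the paternal allele, and Usp29 is paternal and Zim1 maternal beside it. In these pools the maternal share of Peg3 was 0.071 to 2.67% and that of Usp29 0.186 to 5.97% in adults, and that of Zim1 79.0 to 95.9% in the embryo and POA and 50 to 56.2% in the PFC. Zim1 was read little in adults, at 0.194 to 1.34 RPM beside 22.0 and 17.0 in the embryo. Within 2 Mb of Peg3 lie 10 Zfp genes: Zfp28, Zfp78, Zfp418, Zfp444, Zfp524, Zfp579, Zfp583, Zfp628, Zfp667 and Zfp787. For the 8 that were tested in adults, the maternal minus paternal log2 ratio ran from −0.13 (Zfp583) to 0.14 (Zfp628), and none was called. The adult maternal share of Zfp583, 48.9% over the 8 pools, was 20.8% in the genome-aligned reads, which list it in the 4 PFC pools with 13 reads in all. Zfp524 had too few reads in the POA, and Zfp418 had a mean of 4.75 reads per POA pool and was not counted in the PFC.

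Zfp28, Zfp78 and Zfp667 lie 308848, 324402 and 397118 bases from Peg3. Zfp28 and Zfp667 were B6-high in both crosses, so that the lower allele was maternal in F1i and paternal in F1r. Zfp28 had maternal shares of 44.7, 38.2, 22.5 and 33.3% in F1i and 62.9, 59.3, 70.0 and 83.3% in F1r adults. Zfp444 was CAST-high (0.23, adjusted p = 0.0101), a call lost without both POA F1r pools (0.10, adjusted p = 0.459). In total reads, 4 of the 5 tested genes of the cluster from 6083091 to 7136273 were higher in the embryo, Zfp28 by 1.55, Zfp78 by 1.35, Zfp787 by 0.85 and Zfp667 by 0.40, and Zfp444 (−0.17) did not pass the test.

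**Figure D5:**
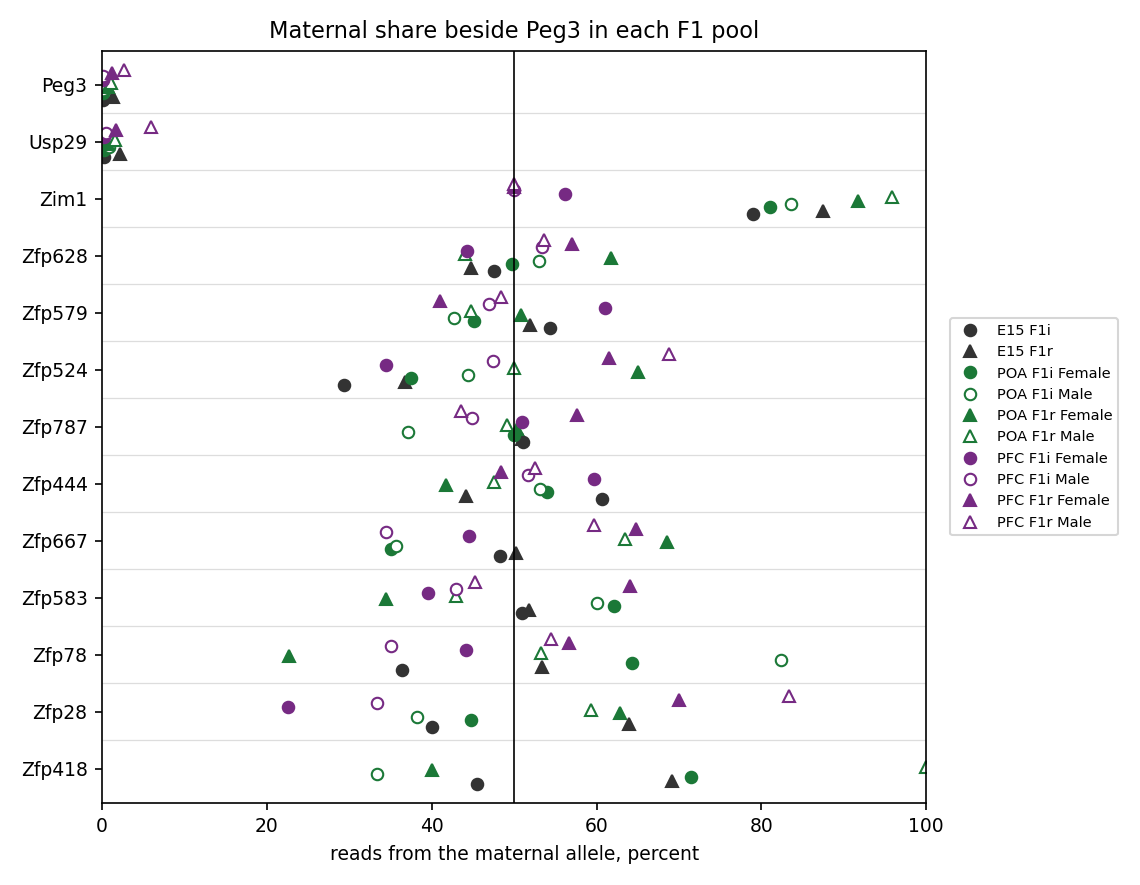
Maternal share of informative reads (x axis, percent) in each pool for Peg3, Usp29, Zim1 and the 10 Zfp genes within 2 Mb of Peg3 (rows); points are single pools, with circles for F1i and triangles for F1r, and the line marks 50%. Peg3 stays at or below 2.67% in adults, the Zfp genes scatter around 50%, and Zfp28 and Zfp667 fall on opposite sides of it in the 2 crosses.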

How the data were processed

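Polyadenylated RNA was read for 36 cycles after fragmentation, random priming and selection of inserts of 200 ± 25 bp, from RNA with an integrity score above 9, per the labels' protocols. The deposited values are raw read counts per SNP and pool, in a column each for the CAST and the B6 base, made by the authors after alignment with Novoalign to mm9 transcripts, per the submitters' processing notes. The authors summed the technical libraries of a pool, 4 per embryonic and 2 per adult pool. Every listed SNP has at least 1 read in each pool of its region, so genes silent in a pool can be missing. Reads do not tell the strand, so overlapping genes share counts.

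Listings of a SNP repeated within a transcript (2073 embryonic, 1056 POA and 911 PFC) were removed and reads were summed over the SNPs of the deepest transcript per gene. SNPs less than 36 bases apart can count a read again. Tests used edgeR 4.0.16 (quasi-likelihood, Benjamini-Hochberg adjustment over all autosomal genes with a mean of 20 reads per pool) in R 4.3.3, and DESeq2 1.42.0 as an alternative. Totals were fitted on SNPs listed in all 3 tables with TMM scaling, region and cross. Allele ratios were fitted with pool, allele, allele by region and allele by cross, with equal library sizes for the alleles of a pool, so that the null is 50%. Over all autosomal reads the CAST share of a pool ran from 44.572% (PFC F1r male) to 51.509% (PFC F1i female), with 45.599% in the E15 F1r pool. Such pool-wide shifts were left in the allele ratios of the main fit. On simulated data, 2-fold changes were recovered for 92% of changed genes in totals, 98.5% in the adult strain and parent tests, and 74% and 71.5% in the embryonic strain and parent tests. The simulated spread between pools was chosen, not estimated, and no pool was shifted over a chromosome block. Parent tests were scored there without the rule on both crosses, so these percentages need not hold for the real pools.

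Positions and coding sequences came from NCBIM37 and GENCODE vM1. For 179 of the genes 2017 SNPs were placed on transcripts, 97.03% with the B6 base at that position. The 36-base window of 14 SNPs in 12 genes (CAST base) and of 24 SNPs in 17 genes (B6 base), among them Zfp146, Zfp260, Zfp369, Zfp423, Zfp521 and Zfp790, also occurs in a transcript of another gene, so their reads are less certain. The authors' SNP calls also label alignments. The label was other than unique for all 17 placed SNPs of Zfp82, all 18 of Zfp251, all 19 of Zfp68 and 25 of 30 of Zfp239. It was so for 0 of 33 in Zfp667, 0 of 31 in Zfp157 and 0 of 12 in Zfp28. What this label means for the counts was not tested.

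The members and lists were chosen with earlier results of these data known. Genes were named by a rule: the 6 largest called changes of totals in each direction without overlap of embryonic and adult pools, up to 6 called genes on one side of 50% in all adult pools (3 in the embryo), up to 5 called differences by region or age, every gene within 2 Mb of Peg3, and every gene of the role lists. Of the role lists, Zfp36, Zfp326, Zfp488 and Zfp708 were not tested for totals, for want of reads at SNPs listed in all 3 tables. Genes named outside the rule, as members of small counts or clusters, were chosen after their values were seen.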

Additional observations from a re-analysis of the deposited data

Results flagged for a closer look

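Some pools lay far from the other pools of their group by Dixon's criterion at 95%, which chance alone meets in about 1 in 20 groups, and 124 groups of 4 pools were examined. The Zfp382 CAST share was 66.7% in the PFC F1i male pool and 54.9 to 56.5% in the other PFC pools. Zfp112 had 48.5% in the POA F1r male pool and 35.3 to 37.3% in the others, and Zfp260 had 42.2% in the PFC F1i female pool and 47.9 to 48.2% in the others. The maternal share of Zfp787, beside Peg3, was 37.1% in the POA F1i male pool and 49.1 to 50.3% in the others. In scaled reads (RPM), Zfp503 had 1.67 in the PFC F1i male pool (others 0.235 to 0.389), Zfp191 had 68.0 in the POA F1r male pool (58.1 to 59.7) and Zfp106 had 610 in the POA F1i female pool (533 to 543).

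The test of a difference between regions or ages singled out further genes. For POA minus PFC the log2 ratio of CAST to B6 differed by −1.23 for Zfp622, −0.88 for Zfp597, 0.44 for Zfp294, 0.89 for Zfp697 and 0.69 for Zfp260. For embryo minus adult it differed by −1.32 for Zfp82, −0.89 for Zfp697, 0.74 for Zfp667, −0.67 for Zfp260 and −0.59 for Zfp37. No explanation of these values was tested.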

How the results depend on the processing

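Other settings were tried for each comparison, of which those on genome-aligned reads, on pools left out together, on a block for cross and sex and on shared SNPs for the allele tests were chosen after seeing the data. The count of Zfp genes called for embryo against adult totals (133) stayed within 1.5 times under all of them. The POA against PFC count of 71 became 107 with each region's own SNPs and 43 without both POA F1r pools. DESeq2 called 21 against 45 for the adult strain ratio, 0 against 14 for POA against PFC, 4 against 48 in the embryo and 1 against 13 between ages, and X and Y genes in the fit gave 4, 12 and 1 for the last 3. The deepest SNP alone, with 70 genes tested, gave 20 adult and 21 embryonic strain calls and 1 call of maternal share between ages. Without both POA F1r pools the adult strain count was 29, the regional one 1 and that between ages 9 (with 1 parental term for both adult regions), and without the 4 POA pools the count between ages was 2. For the adult maternal share, 1 gene instead of 0 was called with the deepest SNP, with SNPs at least 36 bases apart (Zfp775), in the POA alone (Zfp260), in the PFC alone and in genome-aligned reads, and Fisher's exact test gave 9 in the embryo. Leaving out 1 pool at a time gave 119 to 133 and 56 to 82 calls of totals by age and region, 32 to 44, 5 to 13, 44 to 49 and 10 to 12 strain calls (adult, POA against PFC, embryo, between ages), and 0 to 1, 0 to 0 and 0 to 1 maternal ones (adult, embryo, between ages). In the strain and maternal tests only adult pools were left out, so these counts do not cover the loss of an embryonic pool. Without the POA F1r female pool the regional strain count was 5, without the POA F1i female pool 6, without the PFC F1i male pool 7, and without either PFC F1r pool 8.

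Over 61 values of named genes, 968 of 1031 alternatives kept direction and call, or moved by less than 1 SD where there was no test, and 52 lost the call. Zfp536 (1.07) and Zfp622 (1.27) gained one with each region's own SNPs, and the adult maternal share of Zfp583 moved from 48.9 to 20.8% in the genome-aligned reads, which hold 13 adult reads of it. Direction turned for Zfp597 in the genome-aligned reads (0.07) and for Zfp335 with DESeq2 (−0.01), with each region's own SNPs (−0.12) and without E15 F1i (−0.47; 0.39 without E15 F1r), PFC F1i female (−0.03), PFC F1i male (−0.01), POA F1i female (0.00) or POA F1i male (−0.02). The cause was not tested. The numbers in the labels mark technical libraries that the authors summed within each pool and pair no samples, and the labels do not say whether the POA and PFC pools of one cross and sex came from the same animals. With a replicate block for cross and sex the counts were 129 and 68 for totals by age and region, 44 and 10 for the adult and regional strain tests, and 0 for the adult maternal share. The regional calls of Zfp27, Zfp179, Zfp608 and Zfp791 were lost and the other 10 remained. Depth limits the genes near 20 reads per pool, whose shares are known only roughly.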
